A study of Mus musculus with 24 samples.

Results

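Adipokines are signalling proteins secreted by fat cells, and adipocyte identity genes encode the transcription, lipid storage and transport proteins that mark the mature fat cell. A list of 10 such genes was drawn up by name: Lep, Adipoq, Retn, Cfd, Plin1, Cidec, Fabp4, Pparg, Rbp4 and Sncg. Of these, 8 had a probe set carrying their symbol alone, among 18193 genes measured, and Cfd and Plin1 were not analysed here. The members were chosen by name, but with their changes in the same arrays already known. They were selected on the log2 changes of isotype against syngeneic and of anti-IFNAR1 against isotype skin. How these differed between day 14 and day 28, and the change of isotype skin between these days, were used as well. All comparisons between groups or days are sums or differences of these, so every value of the 8 genes is a description. How many passed the threshold of the fit is counted beside the share of all genes, and no p-value is given for them.

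The study measured shaved dorsal scapular skin on 24 Affymetrix arrays, 4 in each of 6 groups. All recipients were female RAG2-/- mice, which cannot rearrange antigen receptors and so lack host T and B lymphocytes. Syngeneic recipients were given Balb/c splenocytes and were sampled at day 14 or day 28. The GVH-SSc recipients, a mouse model of scleroderma-like graft-versus-host disease, were given B10.D2 splenocytes and sampled on the same days. They were treated with an isotype antibody, as the control, or with anti-IFNAR1, which binds 1 of the chains through which cells sense type I interferon. The labels name no antibody for the syngeneic mice, so the graft and the injected antibody cannot be told apart in comparisons with them. Whether the arrays within a group stand for different animals is also unstated, and p-values then measure only the spread between these arrays, which may be technical. In whole skin, fewer fat cells and less RNA per fat cell cannot be told apart.

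Mouse dorsal skin carries a layer of white adipocytes beneath the dermis, which thickens and thins with the hair cycle and surrounds the growing follicles. Fat cells are formed when the nuclear receptor PPARG and the C/EBP factors switch on genes for lipid uptake, storage and release, and these same factors keep the mature cell in its state. Loss of the dermal fat layer is a known feature of sclerotic skin.

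The promoters of 4 of the genes are shown because their transcripts differed in timing: Lep and Sncg were already lower at day 14 in isotype skin, while Adipoq and Pparg were not. RefSeq windows of 250 bases before each annotated start were held for 9 of the 10 genes (13 windows, GRCm38.p6; Fabp4 was not among them). Each is given 5′ to 3′ on the strand of the gene, and capitals mark matches to the C/EBP core TTGCNNAA on either strand.
Lep, chr6:29059971-29060220, plus strand: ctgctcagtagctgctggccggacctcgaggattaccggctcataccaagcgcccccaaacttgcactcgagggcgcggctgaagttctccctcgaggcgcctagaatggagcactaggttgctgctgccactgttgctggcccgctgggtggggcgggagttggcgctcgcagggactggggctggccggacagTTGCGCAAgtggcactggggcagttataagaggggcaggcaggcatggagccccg
Sncg, chr14:34374670-34374919, minus strand: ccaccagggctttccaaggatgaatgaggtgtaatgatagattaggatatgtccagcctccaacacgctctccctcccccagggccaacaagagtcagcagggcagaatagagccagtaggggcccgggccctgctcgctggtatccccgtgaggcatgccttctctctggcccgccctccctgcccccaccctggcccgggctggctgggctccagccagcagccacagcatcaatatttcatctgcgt
Adipoq, chr16:23146286-23146535, plus strand: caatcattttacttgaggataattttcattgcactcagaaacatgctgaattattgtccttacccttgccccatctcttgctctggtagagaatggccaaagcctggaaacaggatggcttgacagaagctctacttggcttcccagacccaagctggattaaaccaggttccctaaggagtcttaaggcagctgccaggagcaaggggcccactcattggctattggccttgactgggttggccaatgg
Pparg, chr6:115421816-115422065, plus strand, before the most downstream of its 3 starts: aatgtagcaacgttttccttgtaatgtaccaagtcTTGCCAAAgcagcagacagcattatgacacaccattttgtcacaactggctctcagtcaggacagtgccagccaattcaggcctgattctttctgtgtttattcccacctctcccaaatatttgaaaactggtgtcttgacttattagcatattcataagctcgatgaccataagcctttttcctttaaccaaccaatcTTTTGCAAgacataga

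The core TTGCNNAA occurred in 9.56% of the 32851 mouse windows of that length, and in 5 of the 13 windows, which belong to 5 of the 9 genes. The other 2 windows of Pparg held no match. Lep held it 55 bases before the start, Cidec 198, Rbp4 128, Pparg 215 and 16, and Plin1 187 and 58 bases before. The match in Lep was the palindrome TTGCGCAA, a special case of the core that was present in 0.164% of all windows and in no other window of the listed genes. The windows of Adipoq, Sncg, Retn and Cfd held no match to the core. A match describes letters only, and no match says only that these letters are not in this window.

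Levels below are log2(intensity + 16), on which 5 stands for an intensity of 16 and 4 for an intensity of 0. The offset of 16 shrinks the changes of dim genes. Array medians lay between 14.84 and 17.71 intensity units, and no arrays were identical. Rag2, deleted in every recipient, had group means between 4.58 and 4.71, near the bottom of the scale, and Ifnar1 between 7.36 and 8.59. Neither can check a group label, since all groups carry the deletion and the antibody binds the protein. The log2 ratio of the 3′ to the 5′ Gapdh control probe sets, a sign of RNA integrity, averaged 1.34 in isotype skin at day 14, 3.34 in anti-IFNAR1 skin at day 14 and between 2.11 and 2.85 in the other groups. It exceeded 4 on 5 arrays: replicate 4 of syngeneic day 14, replicates 3 and 4 of anti-IFNAR1 day 14, replicate 3 of syngeneic day 28 and replicate 1 of isotype day 28.

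Leptin, the hormone by which fat signals energy stores to the brain, read lower in isotype than in syngeneic skin on both days. At day 14, Lep read 8.08, 7.08, 6.71 and 6.58 in the 4 syngeneic arrays, 4.62, 5.29, 5.57 and 6.38 in the isotype arrays, and 5.57, 6.92, 4.90 and 5.59 in the anti-IFNAR1 arrays. At day 28 it read 6.83, 7.13, 7.62 and 8.42 in syngeneic, 4.75, 4.44, 4.61 and 4.52 in isotype, and 7.87, 6.07, 6.63 and 7.20 in anti-IFNAR1 skin. All 4 isotype arrays at day 28 lay below every syngeneic and every anti-IFNAR1 array of that day, at the edge of the background. At day 14 the isotype arrays lay below every syngeneic array but overlapped the anti-IFNAR1 arrays, which overlapped the syngeneic arrays too.

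Sncg encodes gamma-synuclein, a protein abundant in white fat cells and in peripheral neurons. At day 14, Sncg read 11.46, 11.25, 10.60 and 10.79 in syngeneic, 8.12, 8.06, 8.44 and 10.22 in isotype, and 8.59, 8.92, 8.61 and 9.16 in anti-IFNAR1 arrays. At day 28 it read 10.84, 11.08, 10.03 and 11.44 in syngeneic, 7.05, 7.27, 7.73 and 7.12 in isotype, and 10.99, 9.82, 10.83 and 11.13 in anti-IFNAR1 arrays. Thus at day 14 both GVH-SSc groups lay wholly below the syngeneic arrays, and at day 28 only the isotype arrays did so, while the anti-IFNAR1 arrays overlapped the syngeneic ones.

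Adiponectin, encoded by Adipoq, is a secreted protein that raises insulin sensitivity and is made almost only by fat cells. Its day 14 levels overlapped in all groups: 11.51, 13.14, 12.12 and 10.66 in syngeneic, 11.54, 11.96, 11.76 and 13.23 in isotype, and 12.43, 12.14, 11.87 and 11.24 in anti-IFNAR1 arrays. At day 28, Adipoq read 11.90, 12.43, 12.43 and 13.33 in syngeneic, 9.13, 10.90, 11.73 and 10.22 in isotype, and 12.55, 12.48, 13.42 and 13.91 in anti-IFNAR1 arrays. The highest isotype array at day 28 fell just short of the lowest syngeneic array, and the isotype arrays spread more widely than any other group of Adipoq (SD 1.10, n = 4).

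Resistin, encoded by Retn, is an adipokine of mouse fat that is linked to insulin resistance. Retn read 10.46, 12.03, 12.12 and 12.27 in syngeneic, 10.76, 10.60, 10.56 and 12.51 in isotype, and 11.94, 11.67, 11.70 and 11.12 in anti-IFNAR1 arrays at day 14. At day 28 the values were 11.20, 12.15, 11.92 and 11.99 in syngeneic, 9.76, 9.33, 10.41 and 9.22 in isotype, and 12.60, 11.39, 12.75 and 12.61 in anti-IFNAR1 arrays. At day 14 the groups overlapped because 1 syngeneic array was low and 1 isotype array high, and at day 28 the isotype arrays lay below all others.

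Retinol-binding protein 4, encoded by Rbp4, carries vitamin A in blood and is also released by fat cells. It had the largest spread of the 8 genes within groups. At day 14, Rbp4 read 7.74, 10.48, 10.14 and 9.78 in syngeneic, 6.78, 7.38, 10.35 and 9.81 in isotype, and 10.15, 10.17, 9.49 and 9.08 in anti-IFNAR1 arrays. At day 28 it read 9.97, 10.88, 10.63 and 10.24 in syngeneic, 7.55, 7.38, 8.45 and 5.73 in isotype, and 11.18, 10.34, 11.06 and 11.77 in anti-IFNAR1 arrays. The isotype group at day 14 was split, with 2 arrays below every syngeneic array and 2 within the syngeneic range, and at day 28 all 4 isotype arrays lay below the other groups.

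Among the storage genes, Cidec encodes a protein that fuses lipid droplets into the large droplet of the white fat cell. At day 14, Cidec read 10.13, 10.76, 10.25 and 10.18 in syngeneic, 10.52, 9.60, 10.43 and 11.31 in isotype, and 10.61, 10.39, 10.63 and 10.22 in anti-IFNAR1 arrays. At day 28 it read 10.36, 11.08, 9.84 and 10.95 in syngeneic, 8.64, 9.84, 9.82 and 8.63 in isotype, and 11.84, 10.34, 11.62 and 11.49 in anti-IFNAR1 arrays. The lowest syngeneic and the highest isotype array at day 28 were the same to 2 decimals, so these groups only just failed to overlap.

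Fabp4 encodes the fatty acid-binding protein that shuttles lipid inside the adipocyte, and some macrophages and endothelial cells also make it. Its day 14 levels overlapped in all groups, from 14.59 to 15.58 in syngeneic, 14.52 to 15.20 in isotype and 14.55 to 15.14 in anti-IFNAR1 arrays. At day 28, Fabp4 read 14.96, 15.09, 14.93 and 15.28 in syngeneic, 13.43, 13.75, 14.15 and 13.23 in isotype, and 15.37, 15.01, 15.44 and 15.44 in anti-IFNAR1 arrays. Fabp4 had the smallest spread of the 8 genes, and all its isotype arrays at day 28 lay below the arrays of every other group.

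Pparg, which encodes the nuclear receptor at the head of the fat cell program, ran level at day 14. It read 8.25, 9.12, 8.40 and 7.55 in syngeneic, 8.09, 7.97, 8.10 and 9.31 in isotype, and 8.53, 8.72, 7.61 and 7.32 in anti-IFNAR1 arrays. At day 28, Pparg read 7.82, 8.03, 7.99 and 8.84 in syngeneic, 5.26, 6.74, 6.91 and 5.79 in isotype, and 8.33, 7.69, 8.22 and 8.82 in anti-IFNAR1 arrays. The 4 isotype arrays at day 28 were the lowest of all 24.

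**Figure D1:**
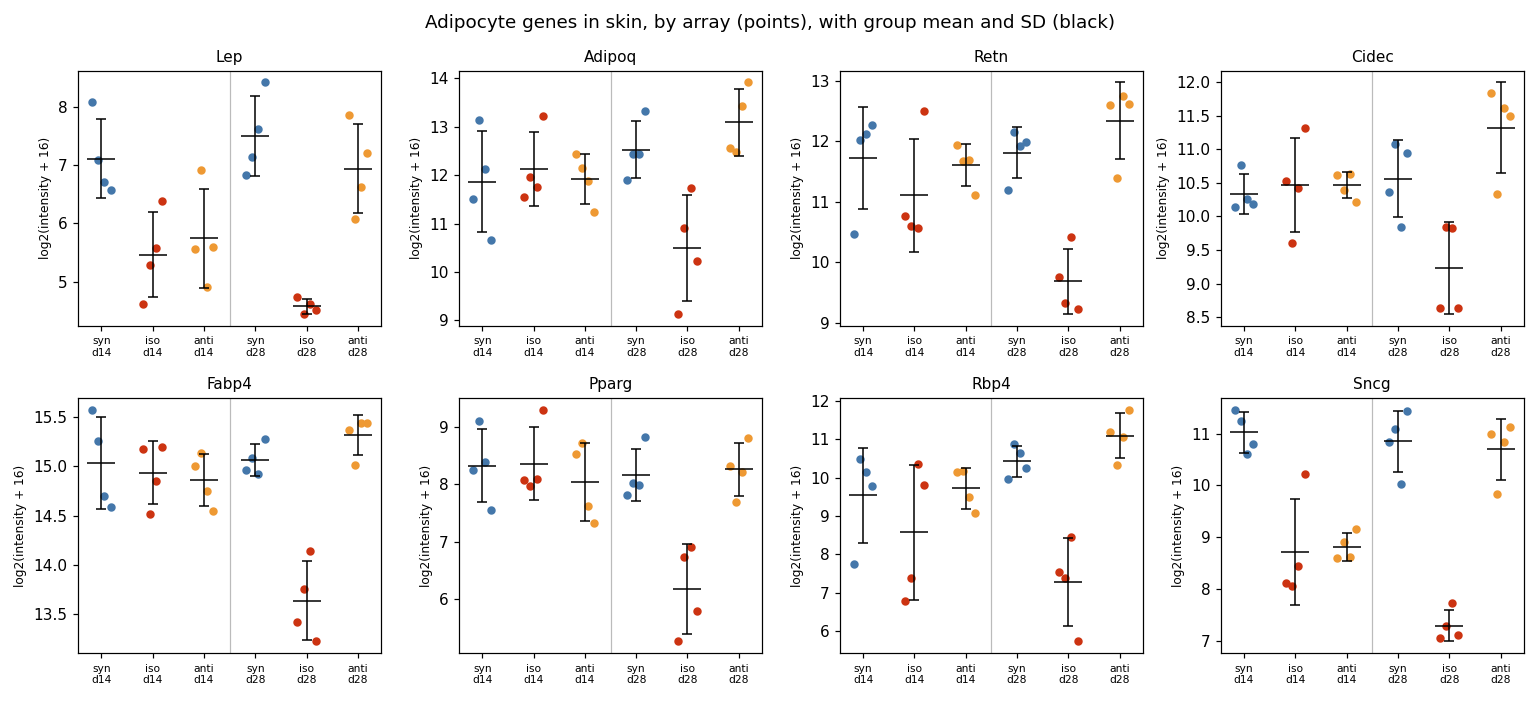
Level of each of the 8 measured genes, as log2(intensity + 16), on every array at day 14 (d14) and day 28 (d28) of syngeneic (syn), isotype (iso) and anti-IFNAR1 (anti) skin; points are arrays, and lines with bars are the group mean and SD (n = 4). The isotype arrays at day 28 have the lowest group mean for all 8 genes, for example 4.58 for Lep and 6.17 for Pparg.

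Ordered by group mean, isotype skin at day 28 was the lowest of the 6 groups for all 8 genes. Anti-IFNAR1 skin at day 28 was the highest for Adipoq, Retn, Cidec, Fabp4 and Rbp4, at 13.09 ± 0.69, 12.34 ± 0.64, 11.32 ± 0.67, 15.32 ± 0.20 and 11.09 ± 0.59 (SD, n = 4). The highest mean of Lep was in syngeneic skin at day 28 (7.50 ± 0.69), that of Sncg in syngeneic skin at day 14 (11.03 ± 0.40) and that of Pparg in isotype skin at day 14 (8.36 ± 0.63). For Pparg the 5 upper groups lay between 8.05 and 8.36, closer together than the SD within any of them, and only isotype skin at day 28, at 6.17 ± 0.79, stood apart. For Sncg the order had 3 levels: both syngeneic groups and anti-IFNAR1 at day 28 between 10.69 and 11.03, both GVH-SSc groups at day 14 at 8.71 and 8.82, and isotype at day 28 at 7.29 ± 0.31.

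Isotype against syngeneic skin at day 14 shows the early difference that goes with the allogeneic graft and the isotype antibody together. Sncg was lower by a factor of 4.99 (log2 change −2.32 ± 0.41, SE). Lep was lower by a log2 change of −1.65 ± 0.47, which became −2.19 with an offset of 1 and −1.0 with an offset of 64. The other 6 genes ranged from −0.95 ± 0.73 for Rbp4 to 0.26 ± 0.56 for Adipoq, each with overlapping groups. With limma at an adjusted p threshold of 0.05, 2 of 8 genes passed as lower and none as higher, where 8.3% of all 18193 genes passed as lower and 5.29% as higher. The same 2 genes had isotype arrays wholly below the syngeneic arrays, as did 8.14% of all genes. The call of Lep was lost without replicate 1 of the syngeneic arrays (−1.32) or replicate 1, 2 or 3 of the isotype arrays (−1.37, −1.59 and −1.68). A fit of only these 8 arrays called neither gene, and it called 83 of all genes against 2472 in the main fit.

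At day 28 all 8 genes were lower in isotype than in syngeneic skin, and in none did the groups overlap. The log2 change was −3.56 ± 0.41 for Sncg, −3.15 ± 0.73 for Rbp4 and −2.13 ± 0.46 for Retn, which are factors of 11.8, 8.90 and 4.38. It was −2.03 ± 0.56 for Adipoq, −2.0 ± 0.43 for Pparg, −1.42 ± 0.22 for Fabp4 and −1.33 ± 0.39 for Cidec, which are factors of 4.08, 3.99, 2.68 and 2.51. The adjusted threshold was passed by all 8, where 9.69% of all genes passed as lower and 12.2% had isotype arrays wholly below the syngeneic ones; the choice of the genes fixed these counts. Lep changed by −2.92 ± 0.47 with the offset of 16, by −4.22 with an offset of 1 and by −1.69 with an offset of 64. Its isotype arrays lay near the background, so the offset sets the size of its change and its place among the 8, and no factor is given.

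The calls of Adipoq and Cidec leaned on a few arrays. Adipoq no longer passed the threshold without replicate 4 of the syngeneic arrays (−1.76) or replicate 1 or 4 of the isotype arrays (−1.57 and −1.94). Cidec no longer passed it without replicate 2 or 4 of the syngeneic arrays (−1.15 and −1.19) or replicate 1 or 4 of the isotype arrays (−1.13 in both cases). Neither passed in a fit of only the arrays compared, or without the 5 arrays of high Gapdh ratio (−1.60 for Adipoq and −1.37 for Cidec). The calls of Lep, Retn, Fabp4, Pparg, Rbp4 and Sncg at day 28 were kept with any array left out.

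Fabp4 was the only one of the 8 with more than 1 probe set. At day 28 its 4 probe sets changed by −1.42 ± 0.22, −1.19 ± 0.17, −2.25 ± 0.53 and −1.42 ± 0.67 between syngeneic and isotype skin. At day 14 they disagreed in sign, but both extremes, −0.90 ± 0.53 and 0.61 ± 0.67, came from dim probe sets (mean levels 7.43 and 6.78). The bright probe sets (14.81 and 14.38) read −0.09 ± 0.22 and −0.21 ± 0.17.

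Anti-IFNAR1 against isotype skin asks what blocking the receptor changed in mice with the same graft. At day 14 the 8 genes ranged from −0.32 ± 0.43 for Pparg to 1.14 ± 0.73 for Rbp4, with a median of 0.05. None passed the limma threshold, and 0.813% of all genes passed in either direction (3075 of 18193 had an unadjusted p under 0.05). At this day Lep differed by 0.28 ± 0.47 and Sncg by 0.11 ± 0.41, with 95% intervals from −0.71 to 1.27 and from −0.75 to 0.96, so a difference of more than a factor of 2 for Lep was still possible.

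At day 28 all 8 genes were higher in anti-IFNAR1 than in isotype skin, and in none did the groups overlap. The log2 change was 3.81 ± 0.73 for Rbp4, 3.40 ± 0.41 for Sncg, 2.66 ± 0.46 for Retn and 2.60 ± 0.56 for Adipoq, which are factors of 14, 10.6, 6.32 and 6.05. It was 2.09 ± 0.43 for Pparg, 2.09 ± 0.39 for Cidec and 1.68 ± 0.22 for Fabp4, which are factors of 4.27, 4.25 and 3.20. Lep changed by 2.36 ± 0.47, and by 3.59 and 1.28 with offsets of 1 and 64. The threshold was passed by all 8, where 8.42% of all genes passed as higher and 10.3% had groups that did not overlap in that direction, and all 8 still passed it with any array left out. In a fit of only the arrays compared, Adipoq did not pass (2.60). Both day 28 comparisons use the same 4 isotype arrays, so the fall in the one and the rise in the other are not separate observations.

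**Figure D2:**
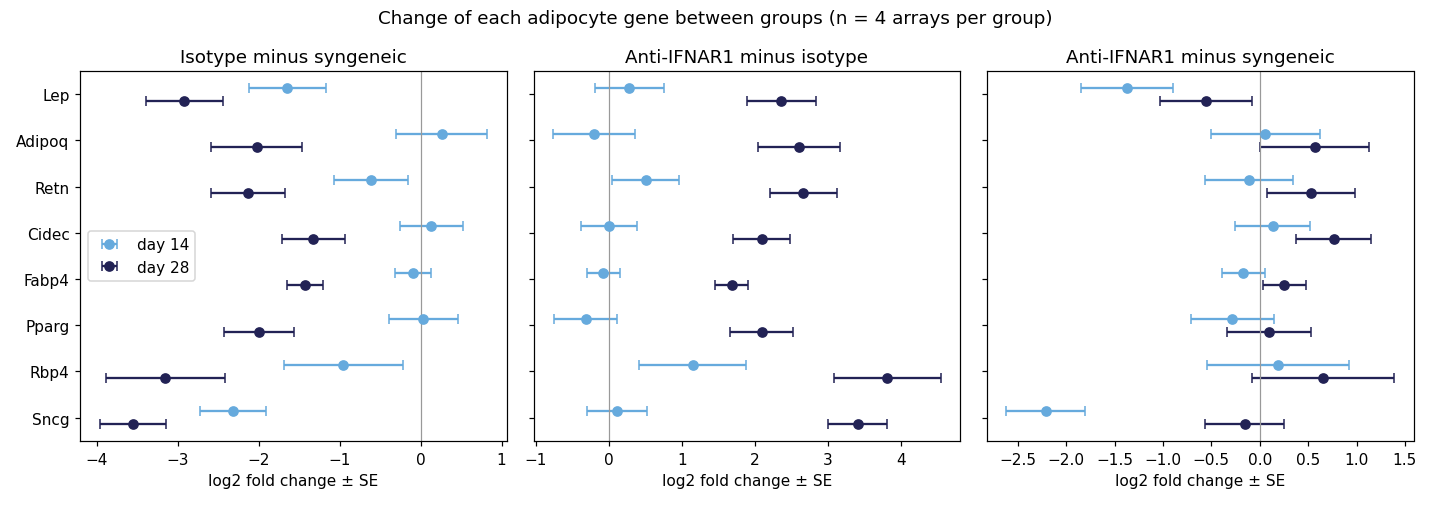
Log2 change of each of the 8 genes in the comparisons between groups at day 14 and day 28; points are limma estimates and bars their standard errors. At day 28 the isotype minus syngeneic values lie between −3.56 and −1.33 and the anti-IFNAR1 minus isotype values between 1.68 and 3.81.

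Set directly against syngeneic skin, anti-IFNAR1 skin at day 28 differed by −0.56 for Lep, with a 95% interval from −1.55 to 0.43, and by −0.15 for Sncg, from −1.01 to 0.70. The other 6 genes lay above the syngeneic level, by 0.10 for Pparg up to 0.76 for Cidec (interval −0.05 to 1.57). None of the 8 passed the limma threshold, but only 0.033% of all genes passed it (370 had an unadjusted p under 0.05), so at this day a call was rare for any gene. These intervals still allow differences of more than a factor of 2 for most of the genes. At day 14, Sncg was lower than in syngeneic skin by a log2 change of −2.21 ± 0.41, with groups that did not overlap, and it alone of the 8 passed the threshold (0.781% of all genes passed as lower, and 5.87% had groups that did not overlap in that direction). That call was lost without replicate 1 or 3 of the anti-IFNAR1 arrays. Lep differed by −1.37 ± 0.47 and did not pass.

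The same values of Lep and Sncg can be set out within arrays, which is no separate observation of their timing. The level of each was taken minus the mean of Adipoq, Retn, Cidec, Fabp4, Pparg and Rbp4 on the same array. This difference was set to 0 at the mean of the day 14 syngeneic arrays. For Sncg this difference was −2.11 ± 0.38 in isotype and −2.18 ± 0.60 in anti-IFNAR1 skin at day 14, −2.02 ± 0.39 in isotype skin at day 28 and −1.10 ± 0.16 in anti-IFNAR1 skin at day 28 (SD, n = 4). In syngeneic skin it was 0 ± 0.70 at day 14 and −0.47 ± 0.47 at day 28. The anti-IFNAR1 value at day 28 lay between those of syngeneic and isotype skin, but 1 syngeneic array of that day reached into its range. For Lep the difference was −1.44 ± 0.33 in isotype and −1.34 ± 0.77 in anti-IFNAR1 skin at day 14, and −0.81 ± 0.70 and −0.94 ± 0.58 at day 28, against 0.10 ± 0.51 in syngeneic skin at day 28. The anti-IFNAR1 arrays of Lep at day 14 (−2.08 to −0.43) overlapped the syngeneic arrays of that day (−0.69 to 1.49). At day 28 both GVH-SSc groups overlapped the syngeneic arrays in this difference of Lep. Lep at day 28 in isotype skin sat at the background, which limits how far below the other genes it could read. No test was made, because the same values had chosen the genes.

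**Figure D3:**
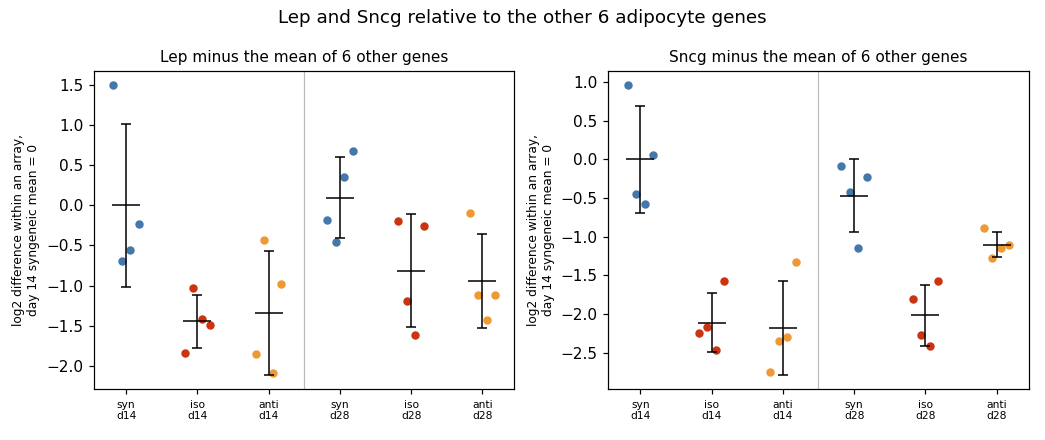
Level of Lep (left) and Sncg (right) minus the mean level of the other 6 genes on the same array, in log2 units with the day 14 syngeneic mean at 0, for syngeneic (syn), isotype (iso) and anti-IFNAR1 (anti) skin; points are arrays and bars the mean and SD (n = 4). At day 14 the isotype and anti-IFNAR1 means of Sncg are −2.11 and −2.18, and at day 28 they are −2.02 and −1.10.

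Between days, the estimates of the 8 genes lay on both sides of 0 in syngeneic skin and all above 0 in anti-IFNAR1 skin. Both comparisons are sums or differences of those that chose the genes, and so are descriptions too. In syngeneic skin the change from day 14 to day 28 ran from −0.18 ± 0.41 for Sncg to 0.90 ± 0.73 for Rbp4. None of the 8 passed the limma threshold, and 0.077% of all genes passed (1652 had an unadjusted p under 0.05). In anti-IFNAR1 skin the estimates were 1.88 ± 0.41 for Sncg, 1.36 ± 0.73 for Rbp4, 1.20 ± 0.47 for Lep and 1.17 ± 0.56 for Adipoq, and 0.22 to 0.86 for the other 4. For Sncg, Rbp4 and Adipoq all 4 arrays of day 28 lay above all 4 arrays of day 14, as they did for 5.95% of all genes. Only Sncg passed the threshold, where 0.17% of all genes passed as higher.

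That call of Sncg was kept in 9 of the 24 fits that left out an array. Over all 24 of these fits, kept or lost, the change ran from 1.73 to 2.17. It was lost without each of the 4 anti-IFNAR1 arrays of day 14, without replicate 1, 3 or 4 of those of day 28, without each of the 4 isotype arrays of day 28, without replicate 2 of syngeneic or 3 of isotype skin at day 14, and without replicate 1 or 2 of syngeneic skin at day 28. It was also lost without the 5 arrays of high Gapdh ratio.

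In isotype skin every one of the 8 estimates from day 14 to day 28 was below 0, from −0.88 ± 0.47 for Lep to −2.19 ± 0.43 for Pparg. Fabp4 (−1.30 ± 0.22) and Pparg passed the threshold, where 1.05% of all genes passed as lower, and Pparg did not without replicate 1 of the day 28 arrays. The difference between isotype and syngeneic skin was larger at day 28 than at day 14 by −1.24 ± 0.58 for Sncg to −2.29 ± 0.80 for Adipoq, and none of the 8 passed the threshold for that difference (0.044% of all genes did). For anti-IFNAR1 against isotype skin the day 28 value exceeded that of day 14 by 1.76 ± 0.31 for Fabp4 to 3.29 ± 0.58 for Sncg, and these 2 passed, where 0.0385% of all genes passed as higher. Both calls were lost with only the arrays compared, with the Gapdh ratio as a covariate and without the arrays of high Gapdh ratio (1.48 for Fabp4 and 3.28 for Sncg). Both were also lost without each anti-IFNAR1 array of day 14, without anti-IFNAR1 replicate 1, 3 or 4, isotype replicate 1 or 4 or syngeneic replicate 1 or 2 of day 28, and that of Fabp4 without isotype replicate 4 of day 14 as well.

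The 8 genes moved together over the arrays as well as over the groups. Over the 24 arrays, Pearson's r between pairs of them ran from 0.561 (Lep with Cidec) to 0.908 (Lep with Sncg), with a median of 0.759 over 28 pairs. With group means removed, so that only the spread within groups was left, it ran from 0.174 (Fabp4 with Rbp4) to 0.914 (Adipoq with Pparg), with a median of 0.511. Arrays of a group therefore tended to be high or low in several of these genes at a time, and the pair tightest within groups was not the pair tightest over groups. The points share their arrays and groups, and these values are descriptions.

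Outside the list, the genes whose levels followed the mean standardised level of the 8 most closely over the 24 arrays were Bche (Pearson r 0.955), Enpep (0.948), 4931406C07Rik (0.944), Amy1 (0.941), Gstz1 (0.940), Cdo1 (0.931), Gstt1 (0.930), Scd1 (0.929), Ghr (0.928) and Aoc3 (0.925). Bche encodes butyrylcholinesterase, Enpep a membrane aminopeptidase, Cdo1 cysteine dioxygenase, Scd1 a fatty acid desaturase, Ghr the growth hormone receptor and Aoc3 a vascular and adipocyte amine oxidase. The genes that ran most against it were Mxd1 (−0.925), Rbp2 (−0.919), Nkpd1 (−0.913), Stfa2l1 (−0.909) and Galnt6 (−0.905). With group means removed the closest were Cdo1 (0.921), Zfp521 (0.877), Mcpt4 (0.876), Il20ra (0.875) and Atraid (0.867), so of the 10 closest over all arrays only Cdo1 was also among the 5 closest within groups. The 10 still followed the mean of the 8 within groups, with r from 0.723 (Scd1) to 0.921 (Cdo1), and Gstz1 at 0.863 came close to Atraid.

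A further 82 adipocyte genes, sorted by role, were followed beside the 8, and 77 of them had a probe set. Results on adipocyte genes in these arrays were known when they were listed, so they are no independent evidence of direction. Per list, the genes named with adjusted p-values were picked for passing in isotype against syngeneic skin at day 28 with the largest changes. Their adjusted p-values are therefore descriptions. At day 28, 29 of the 77 were lower and 4 higher in isotype than in syngeneic skin by limma (9.69% and 6.66% of all genes), with a median log2 change of −0.76. In anti-IFNAR1 against isotype skin 35 were higher and 3 lower (8.42% and 4.89% of all genes), with a median of 0.84. The medians over all genes were −0.00089 and −0.00075.

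Lipid uptake and breakdown genes were among those that were lower in isotype than in syngeneic skin at day 28. Lpl, the lipase that frees fatty acids from circulating lipoproteins, was lower by 1.65 ± 0.22 on the log2 scale (limma, adjusted p = 5.97e-05). Mgll, which cleaves monoglycerides, was lower by 2.24 ± 0.31 (limma, adjusted p = 9.02e-05). At day 14 Mgll had already passed as lower (−0.97 ± 0.31), a call lost in 14 of the 24 fits that left out an array. Cd36, a fatty acid transporter, changed by −1.97 ± 0.49 (limma, adjusted p = 0.0091). Fabp5, the fatty acid-binding protein of epidermis and macrophages, went the other way and was higher by 1.40 ± 0.27 (limma, adjusted p = 0.0015). It had passed as higher at day 14 too, a call lost in 6 of the 24 fits that left out an array (0.76 to 0.97). Of 8 uptake and transport genes measured, 3 were lower and 1 higher, and of 6 lipolysis genes 3 were lower, including Pnpla2 (−0.94 ± 0.30) and the glycerol channel Aqp7 (−0.90 ± 0.30), both close to the threshold. Under anti-IFNAR1, 6 of the 8 uptake genes and 5 of the 6 lipolysis genes were higher than in isotype skin, and Fabp5 was lower (−1.24).

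Of 11 lipid droplet genes, 6 were lower in isotype skin at day 28 and none higher. Cidea, a droplet protein of brown fat and of sebaceous cells, changed by −2.24 ± 0.50, the droplet coat protein gene Plin4 by −1.64 ± 0.25 and the lipase inhibitor gene G0s2 by −1.34 ± 0.38. Cidea had stood at 1.08 ± 0.50 at day 14, which did not pass. Of 9 triglyceride synthesis genes 3 were lower: Pck1 (−2.17 ± 0.66), Gpd1 (−1.85 ± 0.45) and Gpam (−1.62 ± 0.28). Gpam, whose product starts triglyceride assembly, was also lower at day 14, by −1.24 ± 0.28 (limma, adjusted p = 0.0078). Under anti-IFNAR1, 5 lipid droplet and 5 triglyceride synthesis genes were higher than in isotype skin.

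The transcription factors of the fat program did not move as 1 group. Of 12 measured, 3 were lower and 1 higher in isotype skin at day 28. Mlxipl, a glucose-sensing factor that turns on lipid synthesis, differed by −1.99 ± 0.40 and Rxrg, a partner of PPARG, by −1.04 ± 0.27. Cebpb, an early adipogenic factor that is also induced in inflammation, was higher by 0.79 ± 0.19 (limma, adjusted p = 0.0072). At day 14, 3 of the 12 were lower and 3 higher, where 8.3% and 5.29% of all genes were. Mlxipl (−1.39 ± 0.40) and Cebpb (0.99 ± 0.19) were among them. The day 14 call of Mlxipl was lost in 5 of the 24 fits that left out an array. Cebpa, named here after its values were seen because it works beside Pparg in the mature fat cell, differed by 0.06 ± 0.21 at day 28, and its group means over both days lay between 11.85 and 12.37. Keratinocytes also express Cebpa. Pparg changed by −2.0 ± 0.43 in the same arrays.

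Of 7 adipokine receptors and partners, only the leptin receptor gene Lepr passed at day 28, at −1.96 ± 0.36 (limma, adjusted p = 0.00098), and it was higher under anti-IFNAR1 by 1.71. In the mean of all its probe sets, that last difference was 0.46 and did not pass. From day 14 to day 28 Lepr differed by 0.02 ± 0.36 in isotype, 1.16 ± 0.36 in syngeneic and 1.47 ± 0.36 in anti-IFNAR1 skin. None of these changes passed. Of 15 other adipocyte genes, 7 were lower and 1 higher in isotype skin, led by Adig (−3.20 ± 0.59), Pnpla3 (−2.17 ± 0.41) and Orm1 (−2.03 ± 0.64). At day 14, Adig, which encodes the small adipocyte protein adipogenin, had been lower by −1.85 (limma, adjusted p = 0.0453) and Pnpla3, a lipase relative, by −1.58 (adjusted p = 0.015). Of these day 14 calls, that of Adig was lost in 19 of the 24 fits that left out an array, and that of Pnpla3 without replicate 4 of the syngeneic or replicate 1 of the isotype arrays (−1.40 to −1.38). Of 9 preadipocyte genes, Zfp423 (−1.69 ± 0.34) and Cd34 (−1.47 ± 0.30) were among 3 that were lower at day 28 and Cd24a (1.03 ± 0.26) was higher. At day 14, 3 of the 9 were already lower, with Zfp423 and Cd34 among them, and 0 higher (8.3% and 5.29% of all genes). That call of Zfp423 was kept with any array left out, and that of Cd34 was lost in 6 of the 24 such fits (−1.01 to −0.90).

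Among the genes named from these lists, 5 calls in isotype against syngeneic skin at day 28 were lost without some of the arrays compared. They were G0s2 (without syngeneic replicate 4 or isotype replicate 3 or 4, −1.28 to −1.05), Pnpla2 (syngeneic 1, 2 or 4 or isotype 1 or 4, −0.95 to −0.74), Pck1 (syngeneic or isotype 1, 2 or 4, −2.19 to −1.91), Orm1 (each syngeneic array or isotype 1 or 4, −2.06 to −1.48) and Aqp7, lost in 15 of 24 such fits (−0.94 to −0.70). The calls at day 28 of the other named genes were kept with any array left out.

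At day 14, 12 of the 77 genes were lower and 6 higher in isotype than in syngeneic skin, where 8.3% and 5.29% of all genes were, with a median of −0.31. These counts hung on single arrays: the lower count came to 6 without replicate 2 or 3 and 4 without replicate 4 of the syngeneic arrays, and to 5, 3 and 4 without replicate 1, 2 or 3 of the isotype arrays. The higher count came to 3 without replicate 3 or 4 of the syngeneic arrays, and to 3 and 2 without replicate 2 or 3 of the isotype arrays. Both were 0 in a fit of only the arrays compared, which called 83 of all genes against 2472 in the main fit. Anti-IFNAR1 against isotype skin at day 14 gave 1 lower and no higher gene, 3 of each without replicate 4 of the isotype arrays, and 5 lower and 20 higher with array weights. From day 14 to day 28, 6 were lower in isotype skin (1.05% of all genes). None of the 77 passed in syngeneic or in anti-IFNAR1 skin between days (0.077% and 0.555% of all genes).

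**Figure D4:**
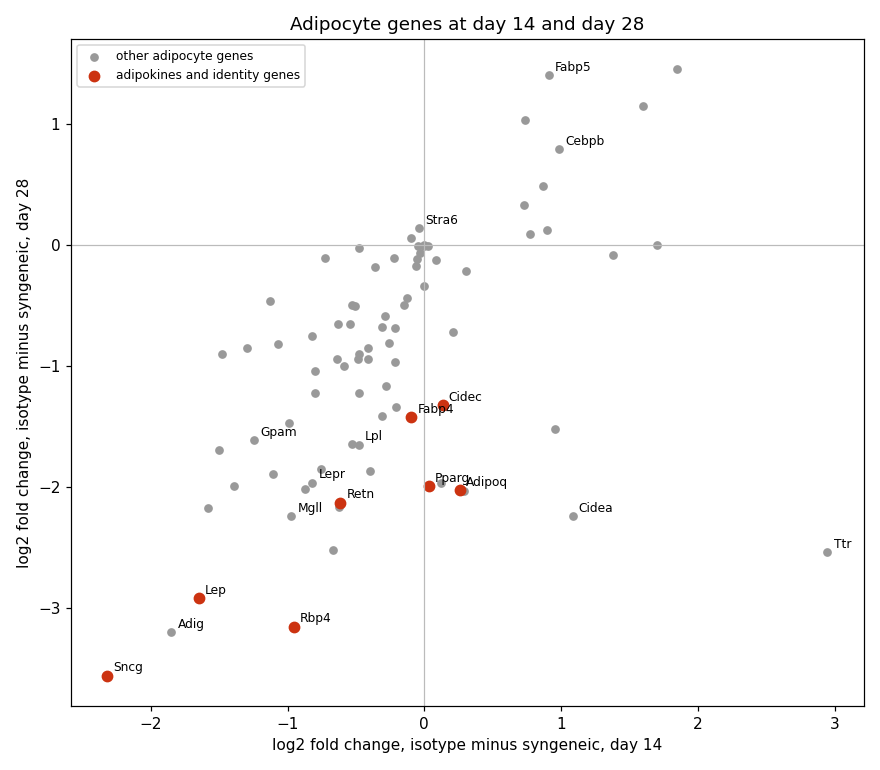
Log2 change between isotype and syngeneic skin at day 14 (horizontal) and day 28 (vertical) for the 8 genes (red) and the 77 other adipocyte genes (grey). Sncg and Lep lie low on both axes (−2.32 and −1.65 at day 14), whereas Pparg, Adipoq, Cidec and Fabp4 lie near 0 on the horizontal axis and between −2.03 and −1.33 on the vertical one; Ttr, far to the right, did not pass the test on either day.

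Markers of other cells of this skin region moved in the same arrays. Of all genes, 9.69% passed as lower and 6.66% as higher in isotype than in syngeneic skin at day 28. Under anti-IFNAR1 at that day, 8.42% passed as higher and 4.89% as lower than in isotype skin. Of 13 skeletal muscle markers, 9 were lower in isotype than in syngeneic skin at day 28 and 9 higher under anti-IFNAR1 (medians −0.92 and 1.01), and their mean level per array ran from 13.24 to 14.31 in isotype against 14.21 to 14.92 in syngeneic and 14.28 to 14.91 in anti-IFNAR1 skin. With the muscle list mean as a covariate, Lep, Fabp4 and Sncg still passed in isotype against syngeneic skin at day 28 (3 of 8). In anti-IFNAR1 against isotype skin at that day, Fabp4 and Sncg did (2 of 8). Without the covariate 2973 and 2422 of all 18193 genes passed in either direction in these comparisons, and 1020 and 430 passed in the fit with it. In that fit the changes at day 28 from syngeneic to isotype skin were −0.82 for Adipoq, −1.22 for Retn, −0.27 for Cidec, −1.04 for Pparg and −1.34 for Rbp4. From isotype to anti-IFNAR1 skin they were 2.25 for Lep, 1.96 for Rbp4, 1.72 for Retn, 1.36 for Adipoq, 1.12 for Pparg and 1.01 for Cidec, none of which passed. Of the 77 other adipocyte genes, 5 were then lower in isotype skin and 2 higher under anti-IFNAR1. Whether the amount of underlying muscle and fat taken with the skin had a part in these results was not tested.

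Of 8 brown fat markers, 3 (Cox7a1, Cox8b and Ppargc1a) were lower in isotype skin at day 28 and 3 higher under anti-IFNAR1, and the list mean ran from 6.71 to 6.92 in isotype against 7.68 to 7.83 in syngeneic and 7.53 to 7.89 in anti-IFNAR1 skin. The defining brown fat gene Ucp1 was at background in every group, with means of 4.37 to 4.38, and Otop1 with means of 4.5 to 4.57. The called brown fat markers are also genes of muscle mitochondria. Sebaceous gland markers, from cells that share lipid genes with fat, were lower for 3 of 5 in isotype skin and higher for 2 of 5 under anti-IFNAR1. Hair follicle markers were lower for 3 of 20 in isotype skin at day 28, where 9.69% of all genes were. Their list means at day 28 ran from 5.04 to 8.0 in isotype, 6.94 to 11.82 in syngeneic and 5.06 to 13.21 in anti-IFNAR1 skin.

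Immune markers went the opposite way: 9 of 11 macrophage and 7 of 8 T cell markers were higher in isotype than in syngeneic skin at day 28, and 5 and 7 were lower under anti-IFNAR1. At day 14, 10 of 11 macrophage and 7 of 8 T cell markers were higher in isotype than in syngeneic skin (5.29% of all genes). On that day Sncg (−2.32) and Lep (−1.65) were also already lower in isotype skin. For Adipoq, Retn, Cidec, Fabp4, Pparg and Rbp4 the isotype and syngeneic arrays overlapped. Keratinocyte markers stood at list means of 12.14 to 14.12 in all arrays, with 1 higher and 1 lower of 9 at day 28. Fibroblast markers were lower for 2 of 9 in isotype skin at day 28, and none of the endothelial or mammary gland markers passed in that comparison. Of 8 endothelial markers, 1 was lower in isotype than in syngeneic skin at day 14 (8.3% of all genes). At day 28, 1 was higher under anti-IFNAR1 than in isotype skin (8.42% of all genes). Their part in the adipocyte results was not tested.

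**Figure D5:**
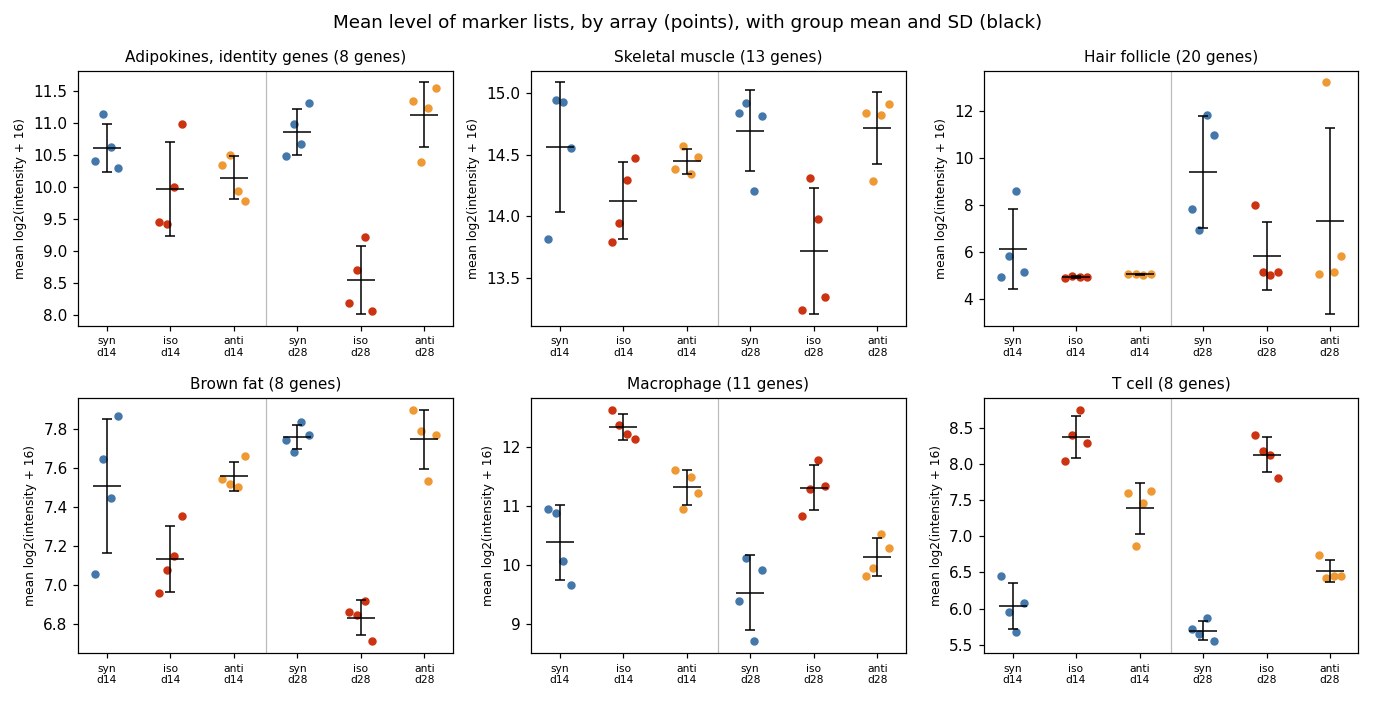
Mean level per array, as log2(intensity + 16), of marker lists of other cell types in syngeneic (syn), isotype (iso) and anti-IFNAR1 (anti) skin at day 14 (d14) and day 28 (d28); points are arrays and bars the mean and SD (n = 4). At day 28 the isotype arrays of the skeletal muscle list run from 13.24 to 14.31, against 14.21 to 14.92 in syngeneic skin.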

How the data were processed

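Total RNA from 24 skin samples was hybridised to Affymetrix arrays, and the authors deposited 1 linear intensity value per probe set and array. Summarisation, normalization and annotation build are not given in the sources used here. The deposited intensity values, from 1.68 to 92640, were turned into log2(intensity + 16) without further scaling. Of 45101 probe sets, 64 were controls, 34945 carried 1 symbol, 932 several and 9160 were not listed. Symbols were updated through gene identifiers for 34741 of the 34945, and 204 kept their name. A gene was read from its brightest probe set on average.

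Group means over all 24 arrays were fitted with limma 3.58.1 in R 4.3.3 (lmFit, eBayes; 18 residual degrees of freedom, prior 0.713), two-sided, with Benjamini-Hochberg adjustment over all genes and a threshold of 0.05. The script was tested on simulated data. The 8 genes, all lists and tests were chosen with earlier results of these data known. Named besides the 8 were, per adipocyte list, the 3 genes called at day 28 with the largest change, and the genes closest to the mean of the 8. Listed genes with no matched probe set were not analysed here. Alternatives were other offsets, normalizations, filters, probe set rules and fits, covariates for the Gapdh ratio, hair follicle and muscle, the replicate number as a block, and leaving out arrays. For arrays, their number limits the precision. In the main fit, replicate numbers were not used to pair the samples.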

Additional observations from a re-analysis of the deposited data

Results flagged for a closer look

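Of 48 groups of 4 arrays, 5 held an array far from the other 3, its gap relative to the group's range exceeding Dixon's 95% critical value; chance flags about 1 group in 20. For Retn these were syngeneic replicate 1 at day 14 (10.46, nearest 12.03), isotype replicate 4 at day 14 (12.51, nearest 10.76) and anti-IFNAR1 replicate 2 at day 28 (11.39, nearest 12.60). Anti-IFNAR1 replicate 2 at day 28 was also low in Fabp4 (15.01, nearest 15.37), and isotype replicate 4 at day 14 was also high in Pparg (9.31, nearest 8.10).

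The difference between anti-IFNAR1 and isotype skin was itself larger at day 28 than at day 14 past the limma threshold for Fabp4, by 1.76, and for Sncg, by 3.29. This contrast had been used to choose the genes, so it is a description. Both calls were lost with only the arrays compared, with the Gapdh covariate and without the arrays of high Gapdh ratio, and in 12 (Fabp4) and 11 (Sncg) of the 24 fits that left out an array.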

How the results depend on the processing

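Across 14 alternative settings and 24 fits that each left out 1 array, no change of a gene past the threshold turned its sign, and 40 of 3333 values of the 8 genes moved by more than the SD between arrays. With all 8 genes passing in the original fit, leaving out an array kept 6 to 8 for isotype against syngeneic skin at day 28 and 8 for anti-IFNAR1 against isotype at day 28. All-gene counts in these fits were 2179 to 3215 and 1668 to 2829. For the 8 genes the range was 1 to 2 for isotype against syngeneic at day 14, 0 to 1 for anti-IFNAR1 against syngeneic at day 14, 1 to 2 for isotype skin between days and 0 to 1 for anti-IFNAR1 skin between days. All-gene ranges were 1350 to 3159, 30 to 415, 151 to 554 and 1 to 218. Of the 8, 0 to 1 passed for the day difference of isotype against syngeneic (3 to 53 of all genes). For that of anti-IFNAR1 against isotype, 0 to 3 did (2 to 106 of all genes). None of the 8 was called in anti-IFNAR1 against isotype at day 14, anti-IFNAR1 against syngeneic at day 28 or syngeneic skin between days (0 in each such fit). All-gene ranges there were 32 to 625, 1 to 19 and 1 to 140.

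For isotype against syngeneic at day 14, which gave 2, the number was 1 with dim genes dropped (Lep left the test), 1 without the arrays of high Gapdh ratio, 1 with the muscle covariate and 0 with only the arrays compared. Of all genes, 2472 passed in the main fit and 2310, 1315, 2263 and 83 in these. At day 28 the muscle covariate left 3 of the 8, and only the arrays compared, or leaving out the high Gapdh arrays, left 6 (without Adipoq and Cidec). All-gene counts were 2973 in the main fit, 1020 with the muscle covariate and 2250 with only the arrays compared. For anti-IFNAR1 against isotype at day 28 the muscle covariate left 2 of the 8 and only the arrays compared left 7 (without Adipoq). All-gene counts there were 2422 in the main fit and 430 and 1539 in these. For anti-IFNAR1 against syngeneic at day 14 the number of the 8 was 0 with only the arrays compared or without the high Gapdh arrays. Of all genes, 204 passed in the main fit and 0 and 9 in these. At day 28 the number of the 8 was 2 with array weights, where 656 of all genes passed against 6 in the main fit. For isotype skin between days the number of the 8 was 0 with only the arrays compared and 4 with array weights. All-gene counts were 400 in the main fit and 6 and 1178 in these. For anti-IFNAR1 skin between days the number of the 8 was 0 with only the arrays compared, the replicate block, the Gapdh covariate, without the high Gapdh arrays or with the muscle covariate, and 3 with array weights. All-gene counts were 101 in the main fit, 20, 35, 103, 3 and 97 in those settings, and 1659 with array weights. For the day difference of anti-IFNAR1 against isotype the number of the 8 was 1 with the mean of probe sets, 1 with the replicate block, 6 with array weights, and 0 with only the arrays compared, the Gapdh or muscle covariate, or without the high Gapdh arrays. All-gene counts were 13 in the main fit, 13, 19 and 1224 in the first of these settings, and 2, 6, 7 and 8 in the rest. The causes were not tested, beyond the smaller number of arrays or genes where some were left out.

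Over all genes, the count for isotype against syngeneic at day 14 was 2472, 83 with only the arrays compared, and 1350 to 3159 with an array left out. Same-numbered arrays of different groups had correlations from −0.616 to 0.571, above 0.1 in 11 of 36 pairs. Arrays of different numbers were not compared in this way, so whether the numbers pair the samples cannot be told. Genes near the background, Lep above all, are limited by signal.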
